A study of Mus musculus with 48 samples.

Results

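Integrins are receptors for the extracellular matrix that sit in the plasma membrane as a pair of one alpha and one beta subunit. The alpha subunit sets much of the ligand choice, the beta subunit connects to talin, kindlin and the actin cytoskeleton, and a beta chain can pair with several alpha chains. Fibroblasts and preadipocytes adhere mainly through fibronectin and vitronectin receptors, whereas fat cells lie in a basement membrane rich in laminin and collagen. The 8 subunits described here were taken by gene symbol: ITGA3, ITGA6 and ITGA7, the alpha chains of laminin receptors, ITGA5, the alpha chain of the classical fibronectin receptor, ITGAV, the alpha chain of receptors for RGD-containing ligands such as vitronectin, and the beta chains ITGB1, ITGB3 and ITGB5. They were represented by 9 probes of the 24613 on the array, and 8 gene symbols of 18991, because ITGB1 had a pair of probes.

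The samples were 3T3-L1 cells, a mouse fibroblast line that differentiates into adipocytes. Cells were transfected with 50 nM of either a SMARTpool siRNA against PPARγ (PPARγ KD) or a pool of non-targeting siRNA (control), and both groups then received the same induction: 0.5 mM IBMX with 0.25 uM dexamethasone, followed by 5 ug per ml insulin with 1 uM rosiglitazone, each for 48 hours. RNA was taken on day −2 and on days 0, 1, 2, 3, 4, 5 and 6 relative to rosiglitazone, with 3 biological replicates of each of the 16 conditions, and was hybridised to 48 Illumina BeadChip arrays. There was no untransfected or undifferentiated group at the later days, all cultures had been transfected with an siRNA pool, and bulk RNA does not tell a change in RNA per cell from a change in the kinds of cells.

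Levels are given as log2 of the background-corrected and scaled bead signal, and differences as log2 PPARγ KD minus control with the standard error of the limma fit. Where days were averaged, the fit counted each day's arrays as separate. Its standard error and p then do not measure the spread between the 3 replicates. A probe was called where its Bonferroni adjusted p over all 24613 probes was at most 0.05. A level says nothing about one gene against another, since probes differ in brightness. Where the arrays of both groups are said not to overlap on a day, this is a description. The share of all probes that separate in this way is not given. A pair is a control and a PPARγ KD array of the same day and replicate number. The labels do not say that equal numbers belong together, and control replicate 1 correlated best with PPARγ KD replicate 2 on all 8 days. Pairs of different days also share replicate numbers, so pair counts are a description. The brightest PPARG probe was lower in each of the 24 pairs, with a difference of −2.34 ± 0.04 over all days (limma, adjusted p = 9.48e-34). A dim PPARG probe, not above background on days −2 and 0, read higher in the PPARγ KD in some pairs, as in replicate 1 on day −2 (4.69 against 4.45). Of the 16 probes of adipocyte markers, the PPARG probes among them, 15 were called lower. ADIPOQ, the fat cell hormone adiponectin, differed by −3.74 ± 0.08 and FABP4, the fatty acid carrier, by −1.64 ± 0.19. Replicate 3 stood apart in both groups: 33.4% to 35.4% of probes were above background there (detection p under 0.01) against 36.8% to 40.4% in replicates 1 and 2, and the replicate number was a term of the fit. Between replicate 3 and replicates 1 and 2, 18176 of the 24613 probes were called, against 17 between replicates 2 and 1. The array of PPARγ KD replicate 1 on day 0 had the lowest median signal (105.1, against up to 141.7).

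Across all days, 5 of the 9 integrin probes were called different between PPARγ KD and control, against 13.1% of all probes. That share includes many dim probes, since 13564 of the 24613 were never above background. Of the 10567 probes above background on at least 3 arrays, fitted on their own, 3426 were called. ITGA6 was lower in the PPARγ KD, by −0.67 ± 0.05 (limma, adjusted p = 3.31e-11). ITGA3, ITGAV, ITGB5 and 1 of the ITGB1 probes were higher, by 0.69 ± 0.08, 0.37 ± 0.05, 0.38 ± 0.04 and 0.20 ± 0.03. The SD of the 3 replicate differences was 0.46, 0.15, 0.14 and 0.04 for these probes and 0.14 for ITGA6. ITGA5, ITGA7, ITGB3 and the other ITGB1 probe did not pass. The median of the 9 probes was 0.10, beside −0.03 over all probes. With the replicate number left out of the fit, 1 of these calls, that of ITGAV, was made. The plot of knockdown minus control gives the 3 replicates of each probe.

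**Figure D1:**
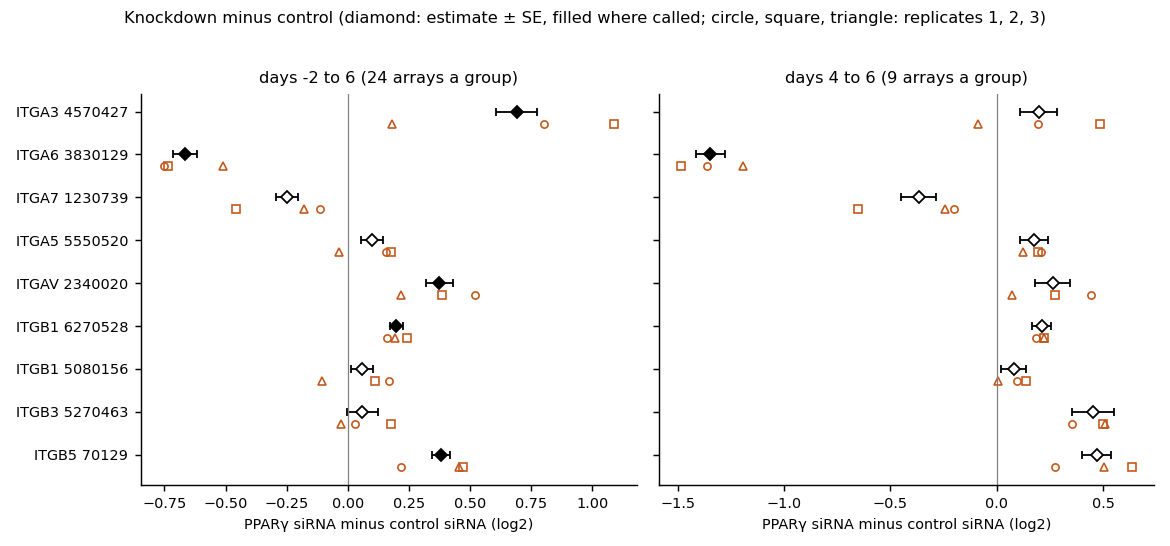
Difference between PPARγ siRNA and control siRNA (log2, horizontal axis) for each of the 9 integrin probes (vertical axis), over all days on the left and over days 4 to 6 on the right. Diamonds are limma estimates with their standard errors, filled where called, and open symbols are the 3 replicates; ITGA6 is to the left of 0 in every replicate in both panels, with −0.67 over all days and −1.35 over days 4 to 6.

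Among the laminin receptor chains, ITGA6 rose as control cells differentiated and did not rise in the PPARγ KD. In control cells its levels on day −2 were 7.22, 7.17 and 6.21 in replicates 1, 2 and 3, and on day 1 they were 6.95, 7.21 and 5.75. By day 3 the same replicates were at 9.05, 8.97 and 7.48, and on day 6 at 8.65, 8.53 and 7.47. Each control replicate was thus higher on day 3 and on day 6 than on day −2, and replicate 3 lay below the other replicates on every day. Over both siRNAs, replicate 3 minus the mean of replicates 1 and 2 was −1.14 ± 0.05.

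In the fit, the control rise from day −2 was 1.14 ± 0.14 on day 2, 1.63 on day 3, 1.33 on day 4, 1.42 on day 5 and 1.35 on day 6, all called (limma, adjusted p between 2.5e-09 and 3.28e-05). In the PPARγ KD the levels went from 7.82, 7.84 and 6.51 on day −2 to 7.32, 7.38 and 6.55 on day 3, and were 7.24, 7.07 and 6.45 by day 6. No PPARγ KD day differed from day −2 by a call for ITGA6, the largest difference being −0.72 ± 0.14 on day 5 (limma, adjusted p = 0.331). The change from day −2 to day 6 was 1.82 ± 0.20 smaller in the PPARγ KD than in control, a difference that was itself tested and called (limma, adjusted p = 1.72e-06); ITGA6 was the 1 integrin probe of 9 called in this test, which called 2.99% of all probes. The call was lost without replicate 2 (adjusted p = 0.0648) and without the replicate block.

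The sign of the ITGA6 difference between the siRNAs turned between day 1 and day 2. On day −2 the PPARγ KD array was the higher one in 3 of 3 pairs, by 0.60, 0.67 and 0.30, on day 0 in 2 of 3 pairs, with differences of −0.15, 0.24 and 0.59, and on day 1 in 3 of 3 pairs. The fitted differences of 0.52, 0.23 and 0.46, each ± 0.14, were not called (limma, adjusted p = 1). From day 2 on it was lower in 3 of 3 pairs on every day, by −1.08, −1.41, −1.13, −1.61 and −1.30 on days 2, 3, 4, 5 and 6, each called (limma, adjusted p between 3.66e-09 and 1.12e-04). The call on day 2 was lost without replicate 1 (adjusted p = 0.0687), without replicate 2 (adjusted p = 0.155) and without scaling, that on day 4 without replicate 2 (adjusted p = 0.491) and without scaling, and those of all 5 days without the replicate block. The 3 control and 3 PPARγ KD arrays did not overlap on days 3, 5 and 6, and overlapped on days 2 and 4, where control replicate 3 was at 7.09 and 7.45.

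Over days 4 to 6, fitted on their own 18 arrays, ITGA6 differed by −1.35 ± 0.07, a fold of 2.54 (limma, adjusted p = 7.98e-09), with 9 of 9 pairs lower and replicate values of −1.36, −1.48 and −1.19. It was the 1 integrin probe called there, where 5.31% of all probes were called, and stayed called in 14 of 15 other settings, the exception being the fit without the replicate block (adjusted p = 1). The effect on days 4 to 6 minus that on days 0 to 2 was −1.21 ± 0.12 (limma, adjusted p = 3.65e-08). The deposited signal behind these values was low: in control cells it reached 692 on day 3, in the PPARγ KD it lay between 114 and 376, and 21 of 24 control and 16 of 24 PPARγ KD arrays gave a signal above background, with the replicate 3 arrays of the PPARγ KD all below. The standard error between beads of this probe was 3.25% to 6.47% of the signal.

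**Figure D2:**
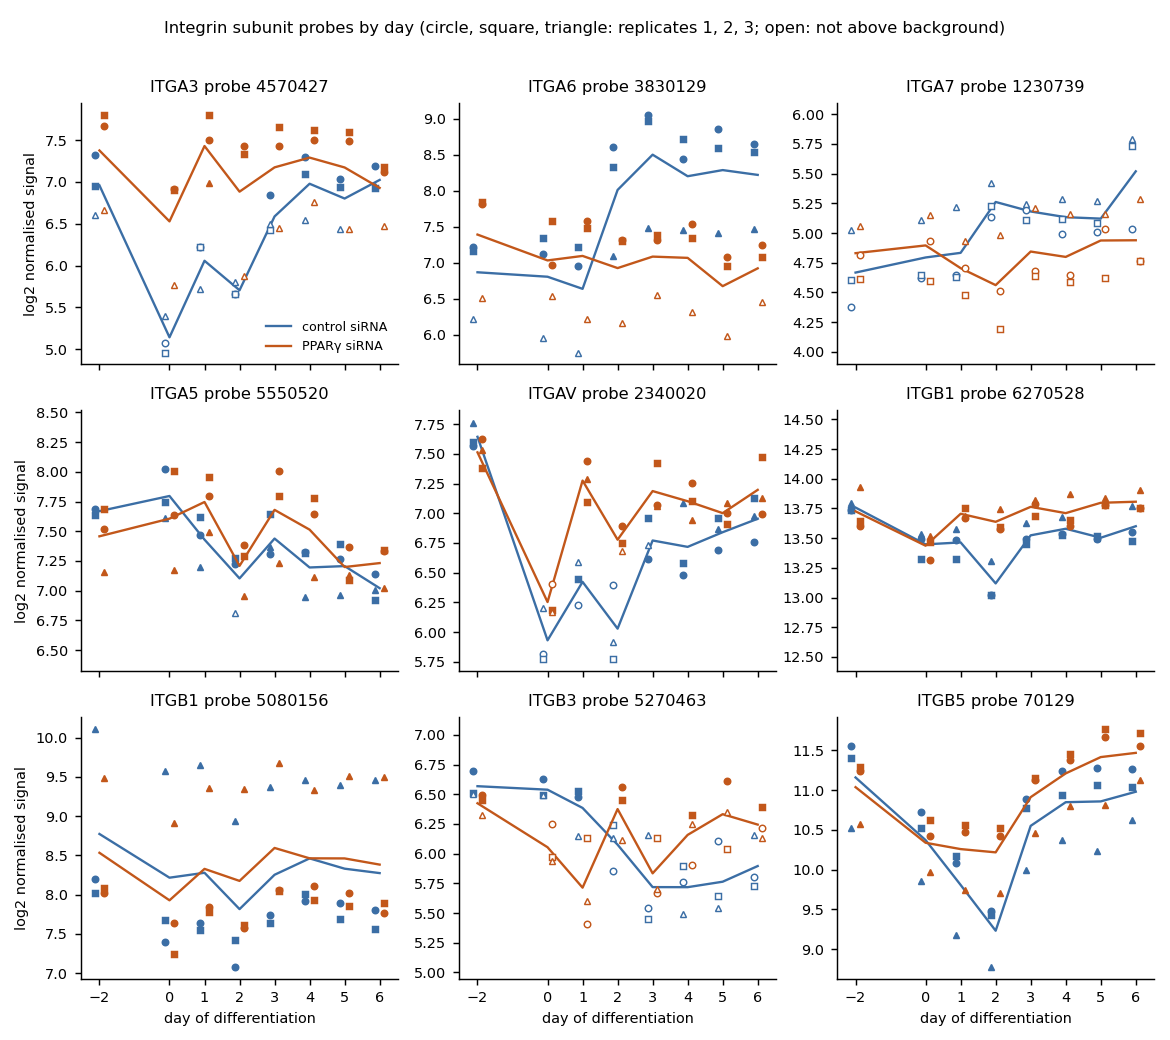
Level of the 9 integrin probes (log2 normalised signal, vertical axes, each panel with its own range) by day (horizontal axes) in control siRNA and PPARγ siRNA cells; lines join means of 3 replicates, symbols are replicates, open where not above background. ITGA6 of control cells goes from 6.87 on day −2 to 8.50 on day 3 while ITGB5 of control cells drops to 9.23 on day 2 and returns.

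ITGA3, which pairs with ITGB1 in a receptor for laminins of basement membranes, fell in control cells between day −2 and day 0. It was called higher in the PPARγ KD on days 0 and 1, with calls that depended on the replicates. Control levels were 7.32, 6.95 and 6.60 on day −2 and 5.07, 4.96 and 5.39 on day 0. The fitted difference was −1.82 ± 0.23 (limma, adjusted p = 6.46e-05). No control array on day 0 and 2 of 3 on day −2 were above background, so no fold is given. On days 4, 5 and 6 the differences from day −2 were 0.02, −0.16 and 0.06. The PPARγ KD went from 7.67, 7.80 and 6.66 to 6.92, 6.90 and 5.76, a difference of −0.85 ± 0.23 that was not called.

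The control arrays of ITGA3 on days 0, 1 and 2 were all not above background. On day 1, where 3 of 3 PPARγ KD arrays were above background, PPARγ KD over control was at least 1.88-fold. This bound is set against the dimmest signal called above background per array. On days 0 and 2 only 2 of 3 PPARγ KD arrays were above background, so no bound is given. The fitted differences on days 0, 1 and 2 were 1.39, 1.37 and 1.18 log2 (limma, adjusted p = 0.0188, 0.0227 and 0.298). The call was lost in 7 of 14 alternatives on day 0 and in 5 of 14 on day 1, leaving out replicate 1 or replicate 2 among them on both days (adjusted p = 1). On each of these days the 3 PPARγ KD arrays read above the 3 control arrays. On days 0 and 2 this rests on PPARγ KD replicate 3, which was itself not above background. On day 2 it was at 5.88, against 5.80 for control replicate 3. The replicates were unequal: on day 2 the pairs differed by 1.78, 1.68 and 0.08, and over all days by 0.80, 1.09 and 0.18. The all-days call was lost without replicate 1 (limma, adjusted p = 0.546) and without replicate 2 (adjusted p = 1). Over days 4 to 6 the difference was 0.20 ± 0.09 and not called, and the fitted effect on days 4 to 6 minus that on days 0 to 2 was −1.12 ± 0.19 (limma, adjusted p = 0.0243). This difference rests on the days on which no control array was above background, ranged from −1.34 to −0.58 over 14 alternatives and lost its call in 8 of them, leaving out replicate 1 or replicate 2 (adjusted p = 1) included.

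ITGA7, the alpha chain of the muscle laminin receptor, was above background on 0 of the 48 arrays, with deposited signals between 60.2 and 132.9, so no fold is given.

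ITGA5, whose heterodimer with ITGB1 binds fibronectin, was the alpha chain that differed least between the siRNAs among those above background. It was above background on 47 of 48 arrays. Control levels went from 7.69, 7.64 and 7.68 on day −2 to 7.14, 6.92 and 7.0025 on day 6, all 3 lower at the end, and those of the PPARγ KD from 7.52, 7.69 and 7.16 to 7.33, 7.34 and 7.02. The day 6 minus day −2 difference was −0.65 ± 0.13 in control and −0.23 ± 0.13 in the PPARγ KD, and neither was called (limma, adjusted p = 0.204 and 1), although the test over all days of the control course called the probe (limma, adjusted p = 0.0229). Over all days the siRNAs differed by 0.10 ± 0.04 with 18 of 24 pairs higher in the PPARγ KD (limma, adjusted p = 1).

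ITGAV, the alpha chain shared by the vitronectin receptors, fell in both groups on day 0. Control levels were 7.56, 7.60 and 7.76 on day −2, then 5.81, 5.78 and 6.20 on day 0 and 6.40, 5.77 and 5.92 on day 2. The PPARγ KD was at 7.63, 7.38 and 7.53 on day −2, at 6.40, 6.18 and 6.17 on day 0, and at 6.90, 6.75 and 6.69 on day 2.

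The control arrays of ITGAV on days 0 and 2 were all not above background, and day −2 over day 0 was at least 2.23-fold and day −2 over day 2 at least 2.03-fold in control cells (fitted −1.71 ± 0.16 and −1.62 ± 0.16; limma, adjusted p = 7.08e-09 and 3.75e-08). In the PPARγ KD the fall was called on day 0 (−1.26 ± 0.16; limma, adjusted p = 2.4e-05) and on no later day. Between the siRNAs the differences on days 1, 2 and 3 were 0.85, 0.75 and 0.42, none of them called on its own day (limma, adjusted p = 0.0761, 0.601 and 1). On day 2 no control array and 2 of 3 PPARγ KD arrays were above background, so no fold is given for that day. The all-days difference of 0.37 ± 0.05, with 19 of 24 pairs higher, was called (limma, adjusted p = 0.0012) and was not called without any one of the replicates, where its adjusted p lay between 0.0839 and 0.963.

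Of the beta chains, ITGB5, which pairs with ITGAV, had a transient fall. In control cells its levels started at 11.56, 11.40 and 10.52 on day −2. Day 0 gave 10.73, 10.53 and 9.85, and by day 2 they had reached 9.48, 9.43 and 8.78. From there they returned to 11.27, 11.04 and 10.63 on day 6. Each control replicate fell to its lowest value on day 2, and the difference from day −2 was −0.79, −1.35 and −1.93 on days 0, 1 and 2, each ± 0.10 (limma, adjusted p = 4.95e-05, 1.69e-11 and 1.64e-16), then −0.61 on day 3 (adjusted p = 0.0121).

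In the PPARγ KD, the ITGB5 levels went from 11.24, 11.29 and 10.57 on day −2 to 10.42, 10.52 and 9.71 on day 2, and reached 11.55, 11.72 and 11.13 by day 6. The differences from day −2 were −0.70, −0.78 and −0.82 on days 0, 1 and 2, all called, and on day 6 0.43 ± 0.10, which was not called (limma, adjusted p = 1). On day 2 the 3 PPARγ KD arrays were above the 3 control arrays, with pair differences of 0.93, 1.09 and 0.93 and a fitted difference of 0.99 ± 0.10, a fold of 1.98 (limma, adjusted p = 1.68e-07). From day 1 on all pairs were higher in the PPARγ KD, whereas on day −2 the difference was −0.12 and on day 0 −0.03.

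The all-days difference of ITGB5, 0.38 ± 0.04, was called (limma, adjusted p = 1.37e-08) and stayed called without each replicate. Over days 4 to 6 the difference of 0.47 ± 0.07, with 9 of 9 pairs higher, missed the threshold (limma, adjusted p = 0.0539) and passed it in 7 of 15 other settings. The plot of pair differences sets the course of ITGB5 beside those of ITGA6 and ITGA3.

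**Figure D3:**
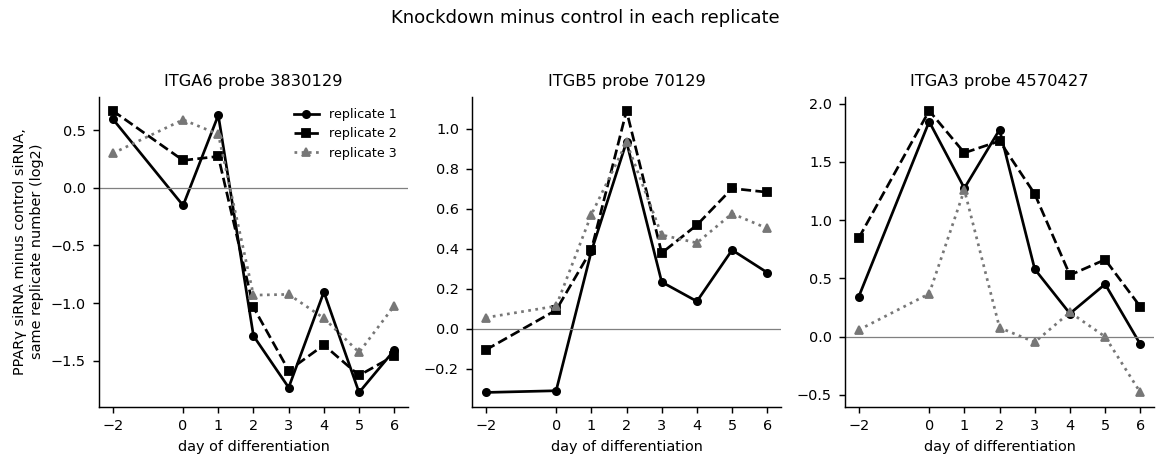
PPARγ siRNA minus control siRNA of the same replicate number (log2, vertical axes) by day (horizontal axes) for ITGA6, ITGB5 and ITGA3, one line per replicate. The 3 ITGA6 lines are below 0 from day 2 on, the ITGB5 lines peak on day 2 between 0.93 and 1.09, and replicate 3 of ITGA3 is at 0.08 on day 2 where the other replicates are at 1.68 and 1.78.

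ITGB1, the partner of ITGA3, ITGA5, ITGA6 and ITGA7 and of ITGAV, was measured by a bright and a dimmer probe. The bright probe, above background on all 48 arrays, went in control cells from 13.73, 13.74 and 13.80 on day −2 to 13.03, 13.02 and 13.31 on day 2 and to 13.56, 13.47 and 13.77 on day 6. In the PPARγ KD it was at 13.61, 13.64 and 13.93, at 13.58, 13.59 and 13.74, and at 13.76, 13.75 and 13.91 on these days. The control fall to day 2 was −0.64 ± 0.07 (limma, adjusted p = 2.61e-06), that of the PPARγ KD −0.09 ± 0.07 and not called.

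On day 2 the 3 PPARγ KD arrays of the bright ITGB1 probe were above the 3 control arrays, by 0.52 ± 0.07 (limma, adjusted p = 3.69e-04). On no other day was this probe called between the siRNAs. The day 2 call was lost in 7 of 14 alternatives, among them leaving out replicate 1 or 2 (adjusted p = 1) or replicate 3 (adjusted p = 0.0553). Over all days 20 of 24 pairs were higher, and the call (limma, adjusted p = 6.08e-05) was lost without replicate 1 (adjusted p = 0.111), without replicate 2 (adjusted p = 1) and without scaling between arrays (adjusted p = 1). The dimmer probe of ITGB1 gave a control fall of −0.96 ± 0.13 on day 2 (limma, adjusted p = 1.3e-04) but an all-days difference of 0.06 ± 0.04 that was not called. It also read 1.67 ± 0.05 higher in replicate 3 than in replicates 1 and 2, where the bright probe differed by 0.14 ± 0.03. What sets the 2 probes apart in replicate 3 was not tested.

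ITGB3, the beta chain of the other ITGAV vitronectin receptor, was above background on 13 of 48 arrays and its courses are uncertain for that reason. Control levels were 6.69, 6.51 and 6.50 on day −2 and 5.80, 5.73 and 6.16 on day 6, and from day 2 on no control array was above background. In the PPARγ KD they were 6.49, 6.45 and 6.33 on day −2 and 6.21, 6.39 and 6.13 on day 6. The fitted differences of −0.67 ± 0.18 on day 1 and 0.57 ± 0.18 on day 5 were not called (limma, adjusted p = 1), and since 0 of 3 PPARγ KD arrays on day 1 and 0 of 3 control arrays on day 5 were above background, they give no fold.

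ITGB1 and ITGB5 were both called lower in control cells on day 2 than on day −2, so the stretches just before their start sites are shown. ITGAV was called lower there as well and is not shown. The stretch of ITGA5 is shown for comparison. Its day 2 difference was not called, although its control course was called by the test over all days. Each is the 250 bases before the RefSeq start site (build GRCm38.p6), 5′ to 3′ on the gene's own strand, and none overlaps an annotated gene. Capitals mark the GC box, GGGCGG or its reverse complement CCGCCC. Itgb1 lies at chr8:128685404-128685653 on the plus strand, Itgb5 at chr16:33829415-33829664 on the plus strand and Itga5 at chr15:103366792-103367041 on the minus strand.
Itgb1: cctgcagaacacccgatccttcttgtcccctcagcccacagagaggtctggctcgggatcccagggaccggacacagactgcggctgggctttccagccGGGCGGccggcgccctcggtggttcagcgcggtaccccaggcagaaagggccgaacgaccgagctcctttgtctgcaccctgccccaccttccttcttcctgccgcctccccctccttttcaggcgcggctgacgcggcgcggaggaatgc
Itgb5: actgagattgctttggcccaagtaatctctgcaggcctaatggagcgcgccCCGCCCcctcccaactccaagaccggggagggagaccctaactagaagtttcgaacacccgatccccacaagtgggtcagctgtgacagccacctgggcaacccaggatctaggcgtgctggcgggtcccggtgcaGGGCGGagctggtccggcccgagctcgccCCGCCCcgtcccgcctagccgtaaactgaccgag
Itga5: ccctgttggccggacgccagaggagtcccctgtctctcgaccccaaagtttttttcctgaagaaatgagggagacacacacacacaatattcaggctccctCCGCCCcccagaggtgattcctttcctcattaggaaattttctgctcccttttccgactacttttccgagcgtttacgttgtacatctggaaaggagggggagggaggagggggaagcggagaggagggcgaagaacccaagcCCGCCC
The GC box was present once before Itgb1, 3 times before Itgb5 and 2 times before Itga5, and 32.7% of 32851 windows of this length in the RefSeq table held it. An AP-1 site, searched as TGANTCA on both strands, was found in none of the 3 windows and in 6.75% of all windows in the table. A nuclear receptor half-site, searched in the same way as AGGTCA, was likewise found in none of them, and 14% of all windows had it. The CCAAT box and the TATA box, the latter read as TATAAA, were also not found in them, against 33.8% and 12.4% of all windows. No match says only that these letters are not in these windows. Of the 8 member genes, 5 had an entry in that table.

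Read as courses, 7 of 9 integrin probes changed over time in control cells by the F-test over the 7 differences from day −2, against 23.5% of all probes, 1 of the 7 being ITGA7 (limma, adjusted p = 0.0201), which was above background on 0 arrays, and 2 of 9 did in the PPARγ KD, ITGAV and ITGB5, against 16.5% of all probes. The counts alone do not show that the courses differed. By single days, 3, 2 and 5 of the 9 probes were called different from day −2 in control cells on days 0, 1 and 2 (background 9.06%, 8.49% and 13.9%), and the one called higher was ITGA6 on day 2. On days 3, 4, 5 and 6 control cells gave 2, 2, 1 and 2 calls (background 4.32%, 4.47%, 5.18% and 6.24%), ITGA6 among them on each day and ITGA7, not above background, on day 6. In the PPARγ KD, 2, 1 and 1 were called on days 0, 1 and 2 (background 7.39%, 4.64% and 2.77%), all lower. From day 3 to day 6 0 were called, where 1.58%, 2.41%, 3.12% and 4.4% of all probes were called. The Benjamini-Hochberg threshold of 0.05 was passed on those 4 days by 1, 0, 3 and 2 of the 9 probes, against 7.14%, 10.4%, 13.5% and 18.3% of all probes. Between the siRNAs 0, 1, 1, 3, 1, 1, 1 and 1 probes were called on days −2, 0, 1, 2, 3, 4, 5 and 6, beside 0.861%, 3.03%, 2.91%, 8.92%, 2.76%, 2.4%, 3.24% and 3.88% of all probes. At day −2, 1 of the 9, ITGA6, passed the Benjamini-Hochberg threshold, against 4.28% of all probes. For the effect on days 4 to 6 minus days 0 to 2, 2 of 9 were called, both lower and named above, against 3.63% of all probes.

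Over the 16 condition means, the levels of ITGB1 and ITGB5 had a Pearson r of 0.84, ITGAV and ITGA3 0.86, and ITGAV and ITGB1 0.85, while ITGA6 lay between −0.49 and 0.02 with each of the other 6 probes compared, which left out ITGA7 and ITGB3; these points share arrays and are a description. The genes whose condition means were most like those of a member among 7747 others were DENND2D, CHPT1 and 2310001A20RIK for ITGA6 (r from 0.91 to 0.93), PTK7, 6030419C18RIK and PTOV1 for ITGB5 (0.97 to 0.98), D4BWG0951E, AXL and MESDC1 for ITGA3 (0.95 to 0.98), NIBAN, BCOR and LRRK1 for ITGAV (0.95 to 0.96), LEPROT, NRADD and LRRC49 for ITGB1 (0.94 to 0.95), and BAHCC1, BC043098 and D030051N19RIK for ITGA5 (0.86 to 0.89).

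The other integrin subunits on the array were 15 genes with 25 probes, of which 16 were above background on 0 arrays. Over all days 1 was called lower and 2 higher in the PPARγ KD, with a median of −0.02, where 6.74% of all probes were called lower and 6.37% higher. ITGA11, a collagen receptor chain of fibroblasts, was higher by 0.38 ± 0.05, and ITGA2B, the platelet fibrinogen receptor chain, by 0.36 ± 0.05, although above background on 23 of 48 arrays; it was named after its values were seen. ITGAE, the alpha chain that binds E-cadherin, had a brighter probe that was lower by −0.25 ± 0.04 over all days (limma, adjusted p = 0.0419) and by −0.71 over days 4 to 6 (limma, adjusted p = 9e-04), and in control cells it rose by 1.61 from day −2 to day 6. The next ITGAE probe was not called over all days and was lower by −0.97 over days 4 to 6 (limma, adjusted p = 5.03e-06), and the other 5 ITGAE probes were not called.

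Of the integrin ligands other than collagens and laminins, 0 of 41 probes were called lower and 13 higher in the PPARγ KD over all days (median 0.10), against 6.74% lower and 6.37% higher among all probes. Of these 41 probes 14 were never above background, beside 13564 of all 24613. The members and all gene lists were chosen with earlier results of these data known, so the list counts here and below are a description. The largest differences were those of ECM1, an extracellular matrix glycoprotein, with 0.50 ± 0.03, TGFBI, a matrix protein bound by several integrins, with 0.49 ± 0.04, and TNXB, a tenascin, with 0.42 ± 0.04. Fibronectin (FN1), the ligand of the ITGA5 receptor, was higher by 0.37 ± 0.03 on its brightest probe and by 0.43 and 0.63 on 2 others that were called, and over days 4 to 6 it differed by −0.06 on the brightest probe without a call.

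Of the integrin activators and adhesion adaptors, 1 of 37 probes was lower and 8 were higher (median 0.12), beside the same 6.74% and 6.37% of all probes. FHL2, a LIM protein that binds integrin tails, was higher by 0.59 ± 0.03, zyxin (ZYX), an adaptor of focal adhesions, by 0.38 ± 0.03, and talin (TLN1), the activator that binds beta tails, by 0.30 ± 0.03, while tensin (TNS1) was lower by −0.28 ± 0.04. Of the signalling kinases and adaptors 0 of 55 probes were lower and 3 higher (median −0.03), against 6.74% and 6.37% of all probes. They were ELMO1, a Rac activator subunit, with 1.18 ± 0.06 on the 1 of its probes that was above background, BCAR1 (p130Cas) with 0.22 ± 0.03 and CDC42 with 0.14 ± 0.02.

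Of the membrane partners of integrins, 2 of 27 probes were lower and 6 higher (median 0.02), where 6.74% and 6.37% of all probes were. CD151, the tetraspanin that binds the laminin receptors, was lower by −0.15 ± 0.03 over all days and by −0.71 over days 4 to 6 (limma, adjusted p = 4.65e-07) and rose by 0.90 in control cells from day −2 to day 6. CD36, a fatty acid transporter that is also an adipocyte marker, was lower by −1.16 ± 0.17 and above background on 9 control arrays and 0 PPARγ KD arrays. SLC3A2, the CD98 heavy chain, was higher by 0.42 ± 0.07, TSPAN4 by 0.34 ± 0.03 and CD47 by 0.32 ± 0.03. The plot of the gene lists shows these probes beside the markers of adipocytes and fibroblasts.

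**Figure D4:**
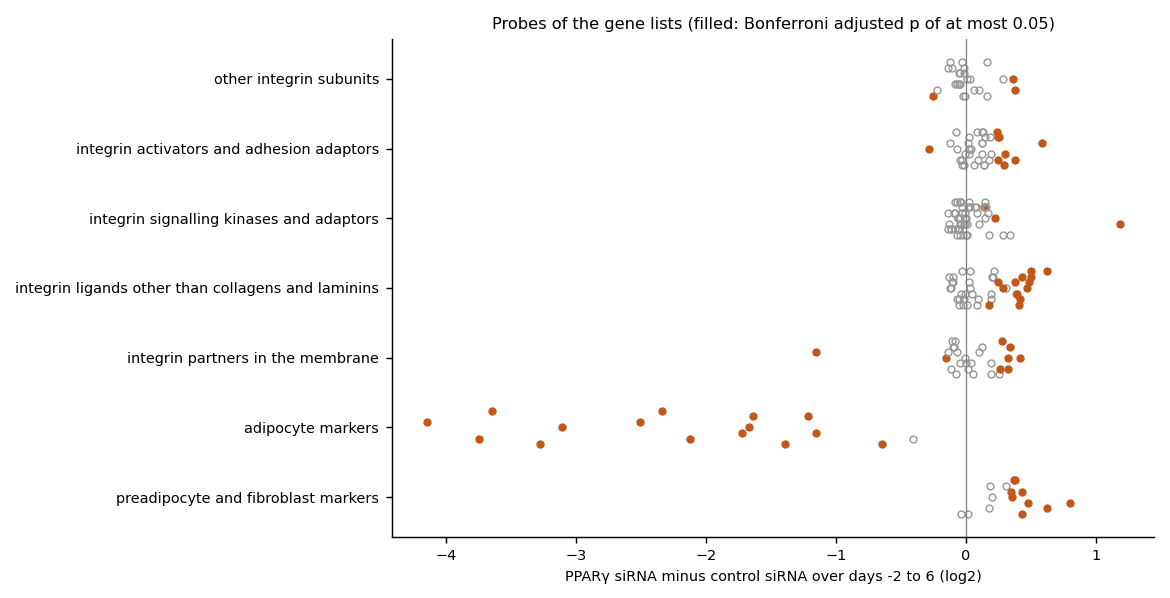
PPARγ siRNA minus control siRNA over all days (log2, horizontal axis) for each probe of 5 integrin-related lists and of the adipocyte and the preadipocyte and fibroblast marker lists (vertical axis, points spread for legibility). Filled points were called; 15 of 16 adipocyte marker probes are filled and to the left of 0, and 13 of 41 ligand probes and 9 of 15 fibroblast marker probes are filled and to the right.

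Of the preadipocyte and fibroblast marker probes, 4 of which are also in the ligand list, 9 of 15 were higher in the PPARγ KD and 0 lower, with a summed level between 74761 and 148340 in control and between 114298 and 164230 in the PPARγ KD. Their part in the integrin differences was not tested. Of all probes, 13.1% were called in either direction. Endothelial markers had 1 of 7 probes called, leukocyte markers 1 of 15, of which 13 were above background on 0 arrays, and skeletal muscle markers 1 of 7, all 3 higher. Of the smooth muscle markers 1 of 7 was lower and 2 were higher, and the 6 epithelial marker probes were above background on 0 arrays.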

How the data were processed

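RNA of 48 cultures was hybridised to Illumina Sentrix MouseRef-8 arrays. The deposited table holds, per probe and array, the intensity that the authors exported from BeadStudio 3.3.7 without normalization, the deposited bead-to-bead SD as a signal spread, the deposited number of beads as a count, and the deposited detection score, a fraction equal to 1 minus the detection p. The rank-invariant normalization and batch removal of the study's methods are not in these values and were redone here.

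Intensities were background-corrected with normexp from the detection p (offset 16), scaled between arrays on rank-invariant probes (tolerance 0.05, between the 50th and 90th percentile; scale factors 0.635 to 1.37) and taken to log2. All 24613 probes were fitted with limma 3.58.1 in R 4.3.3, giving each siRNA its own mean on every day and blocking on the replicate number, and p-values were Bonferroni adjusted, within each day for single days. No filter on low values was applied: all 9 integrin probes were tested, 7 of them above background on at least 24 arrays. The study's methods removed a batch effect without naming the batch, and taking the replicate number for it was a choice made here. Same-numbered control and PPARγ KD arrays of a day deviated together with r between 0.0239 and 0.901 over 24 pairs, the lowest being day 0 replicate 1, and 14 of 24 correlated best with their own number; control replicate 1 correlated best with PPARγ KD replicate 2 on all 8 days. On simulated data with 200 changed probes, 200 were recovered over all days, 199 over days 4 to 6, 192 for the late minus early effect and 177 on a single day (log2 change of 1), and 200 by each F-test over time (log2 change of 2), with 1 false call, on the single day. The simulated data had normal noise and the same replicate effects in both siRNA groups, as the fit assumes. They therefore cannot show whether the replicate block is right for the real arrays. The number of arrays limits the precision.

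All member probes are named, with other integrin subunits above background on at least 24 arrays, in each other integrin list the 3 called genes with the largest difference in each direction, and for each member the 3 genes of the most similar pattern. The members and lists were chosen with earlier results of these data known. Alternatives were quantile normalization, no scaling, no background correction, offset 50, a filter on dim probes, no block, a block by day, Benjamini-Hochberg adjustment, an added 1.5-fold limit, an intensity trend and leaving out each replicate.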

Additional observations from a re-analysis of the deposited data

Results flagged for a closer look

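The effect of the PPARγ siRNA on days 4 to 6 minus that on days 0 to 2 differed from 0 for ITGA6, by −1.21 log2 (limma, adjusted p = 3.65e-08), and for ITGA3, by a fitted −1.12 log2 (limma, adjusted p = 0.0243), with no control array above background on days 0 to 2 and the call lost in 8 of 14 alternatives. The ITGA6 change from day −2 to day 6 was different in the PPARγ KD and in control, by −1.82 log2 (limma, adjusted p = 1.72e-06), a call lost without replicate 2 and without the replicate block.

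For ITGA6, 3 of 3 pairs had the higher value in the PPARγ KD on day −2, by 0.52 log2, and 3 of 3 had the lower one on day 5, by −1.61 log2. ITGB3 read lower in 3 of 3 pairs on day 1, by a fitted −0.67 log2, and higher in 3 of 3 pairs on day 5, by a fitted 0.57 log2. On day 1 0 of 3 PPARγ KD and 2 of 3 control arrays were above background, and on day 5 1 of 3 and 0 of 3, so neither value gives a fold. The difference between these days was not tested.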

How the results depend on the processing

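No integrin result turned its direction while called. Without the replicate block, the 9 integrin probes gave 1 call over all days in place of 5, 0 over days 4 to 6 in place of 1, 0 for the late minus early effect in place of 2, 0 summed over the 8 single days in place of 9, 1 over time in control cells in place of 7, 1 over time in the PPARγ KD in place of 2, and 0 for the change from day −2 to day 6 in place of 1. Among all 24613 probes, 1769 were then called over all days in place of 3227, and 568 over days 4 to 6 in place of 1307. With the replicate block by day, 1 integrin probe was called for the late minus early effect. Leaving out each replicate in turn gave 2 to 4 integrin calls over all days, beside 1749 to 2591 among all probes. It gave 1 to 2 integrin calls for the late minus early effect, 4 to 9 summed over the single days and 3 to 4 over time in control cells. Over time in the PPARγ KD it gave 1, and for the change from day −2 to day 6 it gave 0 to 1, with 0 without replicate 2. Outside the all-days and days 4 to 6 comparisons, no share over all probes is given for these alternatives. A changed integrin count there cannot be told from a general change in the number of calls.

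Benjamini-Hochberg adjustment gave 6 calls over days 4 to 6 and 4 for the late minus early effect, against 20.8% and 11.9% of all probes. It gave 8 over time in the PPARγ KD and 3 for the change from day −2 to day 6, against 36.1% and 10.4%. Summed over single days it gave 27 calls, where 4.28% to 24.2% of all probes passed on a day. Adding a 1.5-fold limit left 2 calls over all days. Without scaling there was 1 call for the late minus early effect, 4 summed over single days and 4 over time in control cells. Without background correction there were 3 calls over days 4 to 6 and 1 for the late minus early effect, and with an offset of 50 there were 2 and 1. Over days 4 to 6, quantile normalization, the filter on dim probes, the intensity trend and a fit on all 48 arrays each gave 2 calls, and the trend gave 14 summed over single days. Among all probes, 1678 were called over days 4 to 6 without background correction, 1669 with offset 50, 1387 with quantile normalization and 1940 with the trend. With the filter, 1387 of 10567 were called. For the other comparisons in these settings no share over all probes is given, so their integrin counts cannot be told from a general change in the number of calls. Without replicate 1 of the PPARγ KD on day 0, an alternative chosen after seeing the data, there was 1 call for the late minus early effect. ITGA7, above background on 0 arrays, differed by −0.25 over all days (limma, adjusted p = 0.0617) and passed the threshold under 5 alternatives. A random block for the BeadChip was not run, since the columns name no chip. ITGA3, ITGAV and ITGB3 lie near background, which limits what their differences show.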
